A study of Mus musculus with 12 samples.

Results

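The 34 genes described here are activity-dependent immediate early genes, taken by symbol from a deposited table of 41388 genes; all 34 were found, and all 34 were among the 17441 genes kept by the count filter. They were followed by poly(A) RNA-seq in cortex of adult C57Bl/6 mice, 12 libraries from 12 animals. Both lines of mice alter exon 5 of Grin1, which encodes GluN1, the subunit that all NMDA-type glutamate receptors share. The knock-in group (KI, Grin1-exon5+/+) carries exon 5 constitutively and the knockout group (KO, Grin1-exon5-/-) lacks it. Each line has wild-type mice of its own (KI_WT and KO_WT), and each of the 4 groups has 3 libraries. The design thus asks whether the levels of these transcripts differ from wild type when the exon is always or never included. The groups are set by line and genotype, so a response to a stimulus was not compared. Grin1 summed over all its exons ranged from 269.4 to 362.5 CPM (the count scaled to library size, and to library composition by edgeR's TMM). Its log2 fold change was -0.04 (SE 0.0996, adjusted p = 0.953) in KI against KI_WT and -0.12 (SE 0.0996, adjusted p = 0.771) in KO against KO_WT by edgeR's quasi-likelihood test. A count over the whole gene does not check whether exon 5 is present, so the genotype labels were taken as given.

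Immediate early genes in the classical sense are transcribed within minutes of synaptic activity without the need for new protein. Calcium entering through NMDA receptors and voltage-gated channels activates kinases that phosphorylate CREB and the partners of SRF, transcription factors already bound at these promoters. The products are transcription factors that drive a later wave of genes, phosphatases and other proteins that terminate the signal, and proteins that act at the synapse or are secreted there. In cortex their level at any moment follows the recent experience of the animal, and they are widely used as markers of recently active neurons.

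The promoter of Fos is shown with those of Gadd45b, Btg2 and Dusp1, the 3 genes that followed it most closely across animals, and with that of Dusp5, which holds matches for both CREB and SRF, the factors that tie this class of genes to calcium signals. Sequences are from RefSeq (GRCm38.p6), read 5′ to 3′ on the strand of the gene, and end at or before the start of transcription, with bases inside annotated exons left out. Capitals mark TGACG or its reverse complement CGTCA, the core of the cAMP response element, and the SRF CArG box. Fos lies at chr12:85473640-85473889, plus strand. Gadd45b lies at chr10:80929841-80930072, plus strand. Btg2 lies at chr1:134079156-134079405, minus strand. Dusp1 lies at chr17:26508520-26508722, minus strand. Dusp5 lies at chr19:53528895-53529108, plus strand.
Fos: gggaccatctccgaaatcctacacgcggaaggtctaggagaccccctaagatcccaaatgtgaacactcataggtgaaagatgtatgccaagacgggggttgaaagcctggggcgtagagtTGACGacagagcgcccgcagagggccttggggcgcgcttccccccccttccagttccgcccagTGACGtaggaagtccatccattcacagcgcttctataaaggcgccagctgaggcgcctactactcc
Gadd45b: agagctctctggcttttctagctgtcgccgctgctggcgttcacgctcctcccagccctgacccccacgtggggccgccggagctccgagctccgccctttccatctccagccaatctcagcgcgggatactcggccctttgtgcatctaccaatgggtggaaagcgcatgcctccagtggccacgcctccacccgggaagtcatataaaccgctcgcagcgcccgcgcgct
Btg2: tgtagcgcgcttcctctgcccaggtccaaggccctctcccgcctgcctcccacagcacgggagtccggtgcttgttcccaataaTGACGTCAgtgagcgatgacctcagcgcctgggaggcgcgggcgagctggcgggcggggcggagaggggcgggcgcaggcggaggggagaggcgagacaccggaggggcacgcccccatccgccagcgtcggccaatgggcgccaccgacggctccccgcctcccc
Dusp1: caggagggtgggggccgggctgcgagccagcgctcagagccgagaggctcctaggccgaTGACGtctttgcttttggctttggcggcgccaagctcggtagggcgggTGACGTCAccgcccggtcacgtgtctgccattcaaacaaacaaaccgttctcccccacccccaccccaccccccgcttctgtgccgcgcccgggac
Dusp5: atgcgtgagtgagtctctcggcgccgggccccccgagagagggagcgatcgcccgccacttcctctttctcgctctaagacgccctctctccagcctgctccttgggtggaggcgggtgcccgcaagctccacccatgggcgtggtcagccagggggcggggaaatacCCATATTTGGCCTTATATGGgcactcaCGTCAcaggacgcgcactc

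The Fos window holds TGACG at 2 places, Btg2 and Dusp1 each hold 1 full palindrome TGACGTCA, and Dusp5 holds 2 CArG boxes beside 1 CGTCA. Gadd45b has none of these letters in its window, which says nothing of elements elsewhere. RefSeq promoter windows were at hand for 27 of the 34 genes (39 windows, since some genes have several starts); Arc, Egr1, Egr3, Ier2, Nptx2, Sik1 and Trib1 had no entry. TGACG on either strand was found in 21 of the 39 windows (53.8%), belonging to 18 of the 27 genes, against 17.8% of all 32851 windows, each searched over the whole 250 bases before the start, exon bases included. The palindrome TGACGTCA, which contains TGACG on both strands, was in 12.8% of their windows against 1.55% of all, and the genes were Arl4d, Btg2, Dusp1, Maff and Pcsk1. The CArG box was in 5 of their 39 windows (12.8%) against 1.47% of all, and these 5 belong to 2 of the 27 genes, Dusp5 and Egr2. TATAA was in 30.8% against 22.8%. These are matches of letters, and binding was not measured.

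In neither line did an immediate early gene pass the test. Of the 34 genes, 0 were called at an adjusted p under 0.05 in KI against KI_WT, where 0% of all tested genes were called, and 0 in KO against KO_WT, where 0.00573% (1 gene) were called. DESeq2 also called 0 of the 34 in both lines. Of the 17441 tested genes it called 2 in the knock-in line and 8 in the knockout line. It returned no adjusted p for Npas4 in the knock-in line (unadjusted p = 0.00272). At an unadjusted p under 0.05 there was 1 of 34 in the knock-in line (6.96% of all tested genes) and 4 of 34 in the knockout line (7.22% of all tested genes). In the knock-in line 14 of the 34 had a positive and 20 a negative log2 fold change, with a median of -0.05 and a range of -0.78 to 0.26, against a median of -0.0054 over all tested genes. In the knockout line 23 were positive and 11 negative, with a median of 0.13 and a range of -0.37 to 0.59, against 0.0076 over all. Leaving out 1 library was enough to turn either median: without KI_WT 3 the knock-in median was 0.145, and without KO 1 the knockout median was -0.09. The balance of signs also moved with the fit. In the knockout line 15 were positive with limma's voom quality weights (median -0.04), 17 with a term for Y-linked genes (median -0.0012) and 13 with terms for regional markers. In the knock-in line 7 were positive with the regional terms, and 23 with limma on log2(RPKM + 0.1), where the median was 0.08 against 0.05 over all genes tested there. The plot of differences shows how wide the intervals are beside the differences themselves. The median 95% interval reached 0.57 log2 units to either side in each line, and the median standard error of 0.26 compares with 0.14 over all tested genes.

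**Figure D1:**
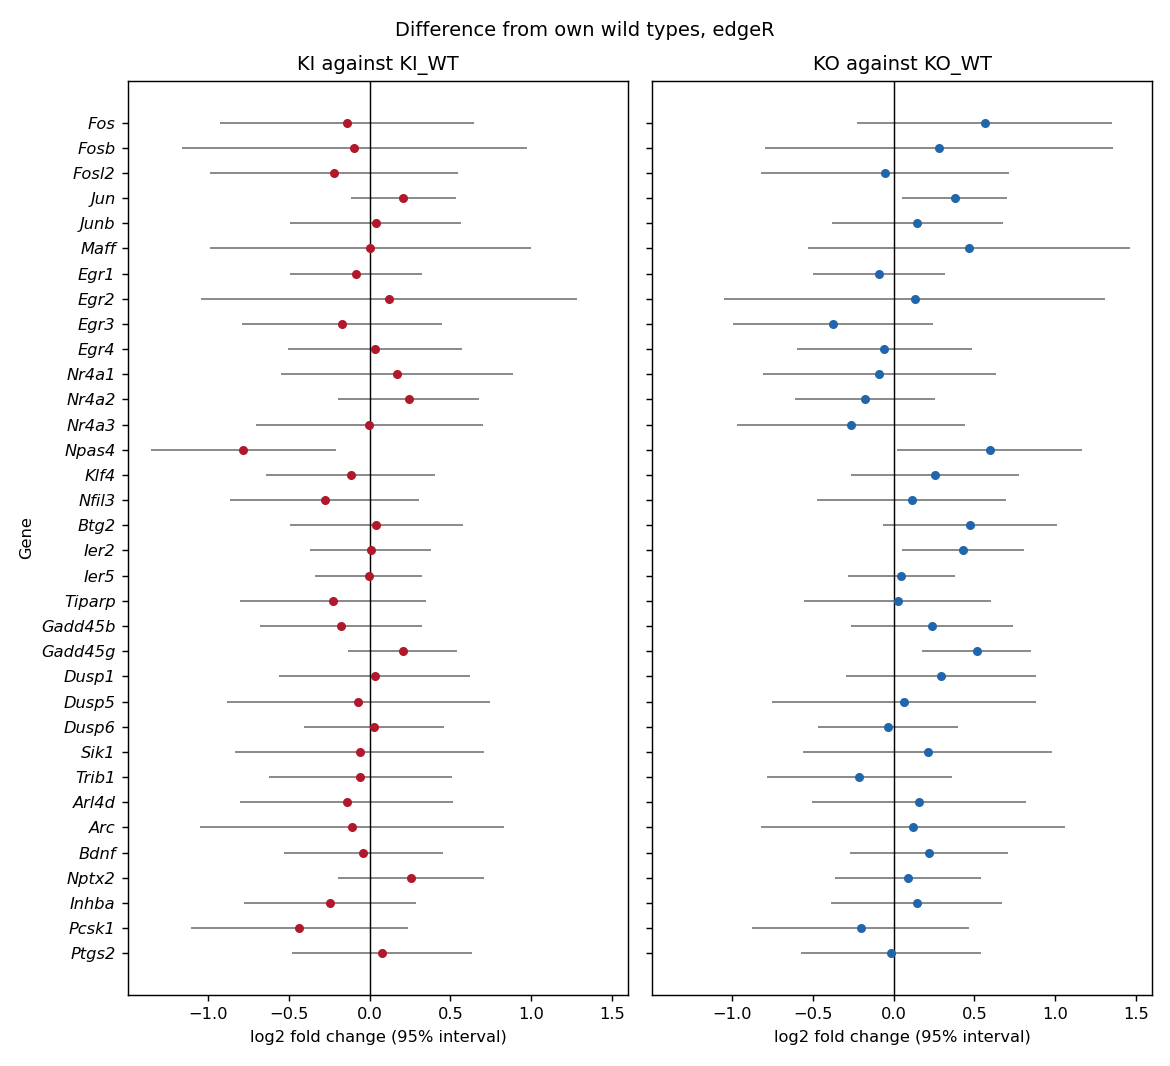
Log2 fold change (points) and 95% interval (bars) of the 34 genes in KI against KI_WT (left) and KO against KO_WT (right), n = 3 libraries a group, from edgeR's quasi-likelihood fit. The interval excludes 0 for Npas4 on the left and for Npas4, Gadd45g, Jun and Ier2 on the right, before adjustment for the number of genes tested.

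The AP-1 genes encode the subunits of a dimeric factor, with Fos, Fosb and Fosl2 on one side of the dimer, Jun and Junb on the other, and Maff a small relative. Fos stood at 35.6, 18.5 and 23.9 CPM in KI 1 to 3 and at 26.7, 16.7 and 42.8 CPM in KI_WT 1 to 3. It stood at 45.4, 27.5 and 20.3 CPM in KO and at 15.7, 24.5 and 22.9 CPM in KO_WT. In each line the mutant and wild-type values overlapped, and the highest values were in KO 1 and KI_WT 3. The log2 fold change of Fos was -0.14 (SE 0.361, adjusted p = 0.952) in the knock-in line and 0.56 (SE 0.363, adjusted p = 0.711) in the knockout line by edgeR. Without KO 1 the knockout value was 0.19. With a term for the range of animal numbers it was 0.78, unadjusted p = 0.0347 and adjusted p = 0.432 (edgeR). Jun, whose product also pairs with itself, stood at 49.9, 62.1 and 42.6 CPM in KO and at 34.4, 43.7 and 41.0 CPM in KO_WT. The groups overlapped, with KO 3 below KO_WT 2; the log2 fold change was 0.38 (SE 0.149, unadjusted p = 0.0258, adjusted p = 0.678 by edgeR). In the knock-in line Jun was at 56.1, 40.4 and 45.7 CPM in KI and 42.1, 38.1 and 42.9 CPM in KI_WT, a log2 fold change of 0.21 (SE 0.149, adjusted p = 0.803). Fosb, Fosl2, Junb and Maff had means of 10.5, 46.1, 39.5 and 1.17 CPM over the 12 libraries. Fosb ranged from 4.80 to 20.3 CPM and Maff from 0.58 to 1.91 CPM, Maff being the lowest of the 34 per length at a mean of 0.556 RPKM (reads per kilobase, scaled for depth). Over the 6 genes the median log2 fold change was -0.05 in the knock-in line and 0.33 in the knockout line, with 0 called in each. All 6 were higher in KI_WT than in KO_WT, with a median of 0.22.

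The 4 EGR genes encode zinc-finger factors, of which Egr1 (also called Zif268) and Egr3 are needed for lasting synaptic potentiation and memory. Egr1 stood at 222, 174 and 215 CPM in KI, 266, 153 and 230 CPM in KI_WT, 243, 165 and 192 CPM in KO, and 218, 224 and 198 CPM in KO_WT. The 4 groups overlapped throughout, and the lowest and highest of the 12 were both KI_WT animals. Its log2 fold change was -0.08 (SE 0.187, adjusted p = 0.943) in KI and -0.09 (SE 0.187, adjusted p = 0.913) in KO by edgeR. Egr2 varied most of the 34 genes: its highest value (13.2 CPM, KI_WT 3) was 5.20 times its lowest (2.54 CPM, KI_WT 2), both within 1 wild-type group. Egr3 and Egr4 had means of 30.0 and 17.6 CPM, and Egr3 had the lowest log2 fold change of the 34 in the knockout line, -0.37 (SE 0.284, adjusted p = 0.744 by edgeR).

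The NR4A genes encode orphan nuclear receptors. Nr4a1 stood at 84.3, 62.4 and 76.7 CPM in KI and at 77.5, 36.4 and 84.9 CPM in KI_WT. It stood at 75.8, 47.1 and 39.9 CPM in KO and at 38.0, 78.8 and 56.5 CPM in KO_WT. In both lines the mutant values lay within the wild-type range. The log2 fold change was 0.17 (SE 0.33, adjusted p = 0.935) in KI and -0.09 (SE 0.331, adjusted p = 0.957) in KO by edgeR. All 3 NR4A genes had a negative value in the knockout line, with a median of -0.18 and a range of -0.26 to -0.09, and none passed at an unadjusted p under 0.05. Nr4a2 stood at 45.8, 31.8 and 60.5 CPM in KI, 32.1, 41.7 and 43.0 CPM in KI_WT, 48.1, 37.1 and 34.4 CPM in KO, and 43.3, 46.4 and 45.6 CPM in KO_WT. The groups of each line overlapped, and the effect in KI minus that in KO was 0.42 (SE 0.283, adjusted p = 0.918 by edgeR). Nr4a3 had a mean of 41.7 CPM.

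Npas4 encodes a bHLH-PAS factor that responds to depolarization and calcium and regulates inhibitory synapses. It was the gene of the 34 with the smallest p in each comparison except KO against KO_WT. It stood at 16.2, 7.65 and 7.71 CPM in KI and at 15.6, 18.7 and 19.9 CPM in KI_WT. Thus 2 of 3 knock-in animals were under 8 CPM, and KI 1 lay between the wild-type values. In the other line it stood at 17.6, 12.2 and 18.8 CPM in KO and at 10.9, 9.47 and 11.9 CPM in KO_WT. Here all 3 knockout animals were above all 3 of their wild types. The means were 10.5 ± 4.93 CPM (SD, n = 3) in KI, 18.1 ± 2.2 in KI_WT, 16.2 ± 3.52 in KO and 10.7 ± 1.22 in KO_WT. On the log2 scale KI differed from KI_WT by -0.78 (SE 0.263; 95% interval from -1.35 to -0.21), with unadjusted p = 0.0116 and adjusted p = 0.705 by edgeR. KO differed from KO_WT by 0.59 (SE 0.263; 95% interval from 0.02 to 1.17), with unadjusted p = 0.0433 and adjusted p = 0.678 by edgeR. The difference between the lines, the effect in KI minus that in KO, was -1.37 (SE 0.371), with unadjusted p = 0.00303 and adjusted p = 0.918 by edgeR. None of these passed the threshold over all genes. Without KI 1 the knock-in difference was -1.23 (adjusted p = 0.812 by edgeR). The wild types of the lines differed by about as much as the mutants did from them: KI_WT was above KO_WT in all 3 animals, by 0.75 on the log2 scale (SE 0.263, unadjusted p = 0.0144, adjusted p = 0.9998 by edgeR). KI was below KO by a log2 fold change of -0.62 (SE 0.262, unadjusted p = 0.035, adjusted p = 0.905 by edgeR). The panel for Npas4 in the plot of levels shows these 4 groups.

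**Figure D2:**
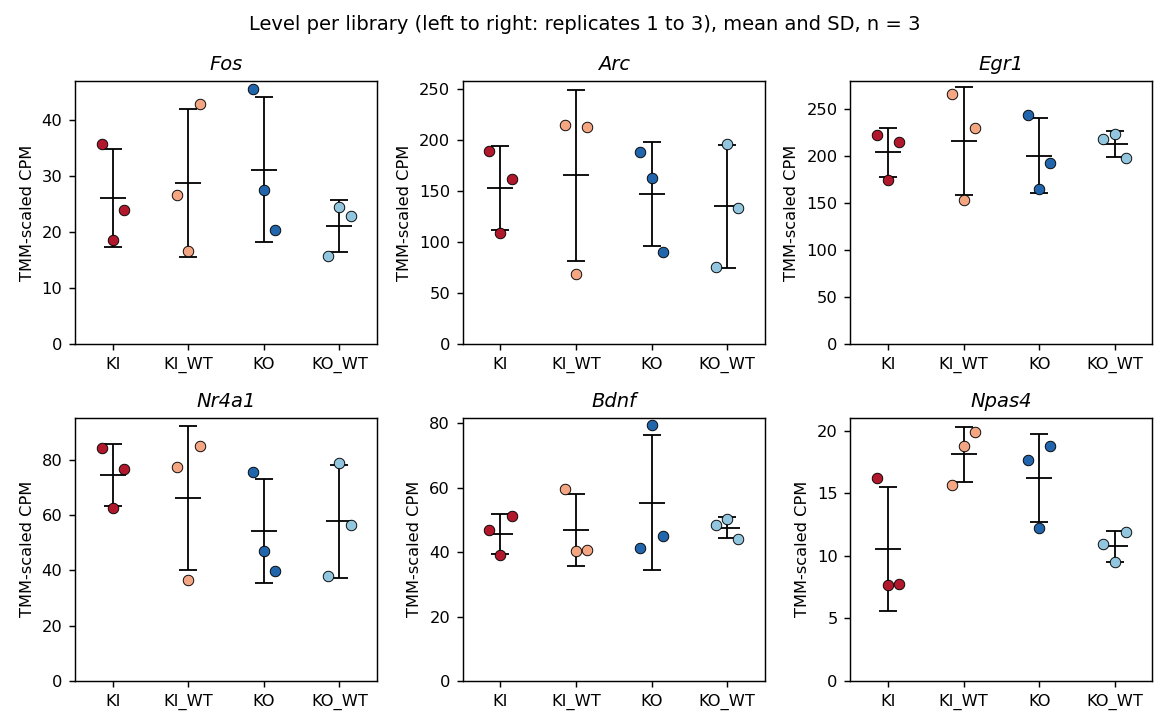
Level in TMM-scaled CPM of the 6 best-known immediate early genes in each library, by group, with the group mean and SD (n = 3). In Fos, Arc, Egr1, Nr4a1 and Bdnf the mutant and wild-type points of each line overlap; in Npas4 the KO points (12.2 to 18.8 CPM) lie above the KO_WT points (9.47 to 11.9 CPM).

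The other nuclear regulators include transcription factors (Klf4, Nfil3), the antiproliferative cofactor Btg2, and the stress-inducible Gadd45b and Gadd45g, linked to active DNA demethylation. In the knockout line all 9 had positive values, with a median log2 fold change of 0.26, a range of 0.03 to 0.59 and 0 called. All 9 were likewise higher in KI_WT than in KO_WT, with a median of 0.18. Gadd45g stood at 16.6, 11.9 and 12.02 CPM in KO and at 9.07, 9.68 and 9.66 CPM in KO_WT. The groups did not overlap, and the log2 fold change was 0.51 (SE 0.155, unadjusted p = 0.00621, adjusted p = 0.678 by edgeR). Ier2 stood at 6.27, 8.52 and 6.80 CPM in KO and at 5.01, 5.98 and 5.05 CPM in KO_WT, again without overlap, a log2 fold change of 0.43 (SE 0.173, unadjusted p = 0.0294, adjusted p = 0.678 by edgeR). Npas4, Gadd45g and Ier2 were the 3 of the 34 genes whose knockout and wild-type libraries did not overlap; 12.4% of all tested genes did not overlap in that comparison. In the knock-in line 0 of the 34 did not overlap, against 12.2% of all tested genes. There the 9 regulators had 3 positive and 6 negative values, with a median of -0.12, and Gadd45g was at 0.21 (SE 0.155). Ier2 stood at 8.23, 5.93 and 5.75 CPM in KI and at 7.21, 5.75 and 6.90 CPM in KI_WT, overlapping groups with a log2 fold change of 0.0051 (SE 0.172). Its effect in KI minus that in KO was -0.42 (SE 0.244, adjusted p = 0.918 by edgeR). Btg2 had a log2 fold change of 0.47 (SE 0.247, adjusted p = 0.686 by edgeR) in the knockout line, and its highest library was KO 1 at 29.4 CPM. The remaining regulators had means of 5.86 (Klf4), 10.2 (Nfil3), 63.6 (Ier5), 28.6 (Tiparp) and 11.2 CPM (Gadd45b), and Ier5 was the steadiest of the 34, its highest library at 1.56 times its lowest.

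The 6 genes grouped as feedback include several whose proteins shut the signal down. Dusp1, Dusp5 and Dusp6 encode MAP kinase phosphatases, Sik1 a kinase that restrains the CREB coactivators, Trib1 a pseudokinase and Arl4d a small GTPase. Their means over the 12 libraries were 25.9 CPM for Dusp1, 12.2 for Dusp5, 67.2 for Dusp6, 13.3 for Sik1, 17.7 for Trib1 and 18.7 for Arl4d. In KI against KI_WT 2 were positive and 4 negative (range -0.14 to 0.03), and in KO against KO_WT 4 were positive and 2 negative (range -0.21 to 0.29); 0 reached an unadjusted p under 0.05. For all 6 the lowest animal of the 12 was the same one, the wild type KI_WT 2.

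The effector genes act outside the nucleus. Arc encodes a protein that drives the removal of AMPA receptors from synapses, Bdnf a neurotrophin, Nptx2 a pentraxin that gathers AMPA receptors, Inhba a subunit of activin, Pcsk1 a prohormone convertase and Ptgs2 the inducible cyclooxygenase. Arc was the most abundant of the 34 per length, with a mean of 49.2 RPKM, followed by Egr1 at 46.4 RPKM, Nr4a1 at 25.6 RPKM and Dusp6 at 24.1 RPKM. Arc stood at 189, 108 and 162 CPM in KI and at 214, 68.9 and 212 CPM in KI_WT. It stood at 188, 163 and 90.4 CPM in KO and at 75.8, 196 and 133 CPM in KO_WT. Each group held both a high and a low animal, so that the log2 fold changes were -0.11 (SE 0.432, adjusted p = 0.969) in KI and 0.12 (SE 0.432, adjusted p = 0.956) in KO by edgeR. Bdnf stood at 46.8, 39.0 and 51.1 CPM in KI, 59.7, 40.3 and 40.7 CPM in KI_WT, 41.4, 79.5 and 45.1 CPM in KO, and 48.3, 50.3 and 44.0 CPM in KO_WT. A single animal, KO 2, was highest and the other 11 lay between 39.0 and 59.7 CPM, and the log2 fold changes were -0.04 (SE 0.226, adjusted p = 0.98) and 0.22 (SE 0.226, adjusted p = 0.809) by edgeR. Pcsk1 had the second smallest p in the knock-in line: it stood at 32.5, 23.3 and 26.6 CPM in KI and at 31.8, 21.3 and 58.5 CPM in KI_WT. The log2 fold change of -0.44 (SE 0.309, adjusted p = 0.802 by edgeR) rested on KI_WT 3, without which it was 0.05. Inhba stood at 6.00, 7.13 and 8.56 CPM in KI, 8.40, 6.33 and 10.9 CPM in KI_WT, 9.56, 11.9 and 7.02 CPM in KO, and 10.1, 6.55 and 9.15 CPM in KO_WT, so that all 4 groups overlapped. Nptx2 and Ptgs2 had means of 49.3 and 23.9 CPM.

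Between the mutants, 0 of the 34 were called in KI against KO (0.00573% of all tested genes) and 1, Npas4, was under an unadjusted p of 0.05 (5.43% of all tested genes). The next smallest p-values were those of Inhba, with a log2 fold change of -0.39 (SE 0.244, adjusted p = 0.925 by edgeR), and Nr4a1, with 0.46 (SE 0.331, adjusted p = 0.946 by edgeR). Between the wild types 0 were called (0% of all tested genes), 1 was under an unadjusted p of 0.05 (1.96% of all tested genes), and 27 of 34 were higher in KI_WT, with a median of 0.15. After Npas4 the smallest p-values were those of Ier2, at 0.31 (SE 0.174), and Fos, at 0.45 (SE 0.363), both with adjusted p = 0.9998 by edgeR. Without KI_WT 3 that median was -0.07. For the difference of the effects 0 were called (0.00573% of all tested genes) and 1 was under an unadjusted p of 0.05 (5.26% of all tested genes). All 6 AP-1 genes and all 9 other nuclear regulators had a negative difference, and all 3 NR4A genes a positive one; the median over the 34 was -0.23, and it was 0.05 without KI_WT 3.

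What the 34 genes shared was their variation between animals of the same group. In the map of deviations several libraries are mostly of 1 colour. In KI_WT 2 the genes lay a median of 0.496 log2 units below their means, with 33 of 34 below, and it was the lowest library for 19 of them. In KI_WT 3, another wild type of the same line, they lay a median of 0.456 above, with 31 of 34 above, and it was the highest library for 14. KO 1 followed at a median of 0.388 above, with 31 of 34 above, then KI 1 at 0.237. KO_WT 1 and KO 3 were low, at -0.273 and -0.232. The median deviation averaged 0.0145 ± 0.217 (SD, n = 3) in KI, 0.0434 ± 0.489 in KI_WT, 0.0806 ± 0.310 in KO and -0.0923 ± 0.164 in KO_WT. Summed over the 34 genes the level ran from 825 CPM in KI_WT 2 to 1527 CPM in KI_WT 3. Over all tested genes the median deviation of a library stayed between -0.00777 and 0.00988.

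**Figure D3:**
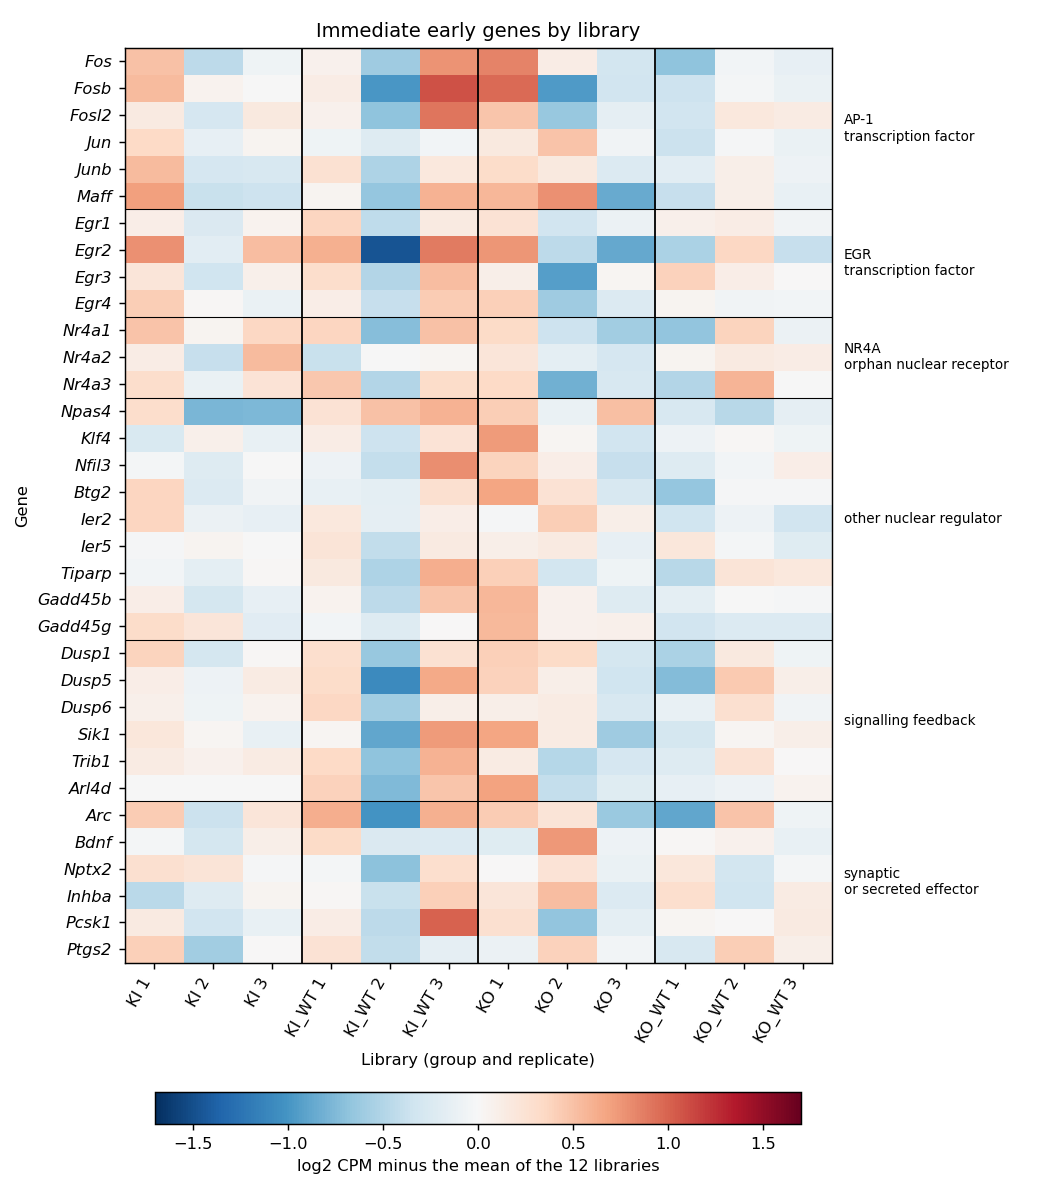
Log2 CPM of each of the 34 genes (rows, ordered by role) in each of the 12 libraries (columns, by group), minus the gene's mean over the libraries; red is above and blue below the mean. KI_WT 2 is below the mean in 33 genes, while KI_WT 3 and KO 1 are each above it in 31; Npas4 is the 1 gene above its mean in KI_WT 2.

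The spread within groups was large for this class of genes. The pooled SD within groups had a median of 0.377 log2 units over the 34 genes, against 0.171 over the other tested genes. All 34 were above the median of genes at a like level (within 1 log2 unit), and 28 were above the 90th percentile. Arc, with an SD of 0.679, was at the 99.9 percentile of the 2768 genes at its level, whose median SD was 0.116. The least variable for their level were Ier2 (60.7 percentile), Gadd45g (71.6) and Klf4 (81.9), of which Ier2 and Gadd45g are also among the genes with the smallest p in the knockout line.

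Fos was used as the point of reference for this shared variation, since it is the best-known member. Over the 12 animals the log2 CPM of 20 of the other 33 genes correlated with Fos at an adjusted p under 0.05 by Pearson's r, 17 by Spearman's rho and 15 by both (permutation tests with 100000 resamples, 2-sided, adjusted over the 33). The lowest r among those 20 was 0.624, and 5.78% of the 17440 tested genes other than Fos had an r at least as high. Gadd45b was closest, with r = 0.938 (permutation p = 2e-05, adjusted 0.00066) and rho = 0.951 (permutation p = 2e-05, adjusted 0.00033). Btg2 had r = 0.907 (permutation p = 4e-05, adjusted 0.00066) and rho = 0.902 (permutation p = 0.00014, adjusted 0.00154). Dusp1 had r = 0.885 (permutation p = 0.00017, adjusted 0.00187) and rho = 0.951 (permutation p = 2e-05, adjusted 0.00033). Arc had r = 0.827 (permutation p = 0.0014, adjusted 0.00577) and rho = 0.825 (permutation p = 0.0016, adjusted 0.00754). Nuclear regulators, a phosphatase and a synaptic protein thus followed Fos from animal to animal. KI_WT 3 and KO 1 are the animals farthest from the median of Fos. Without them the r of the 20 genes ran from 0.153 to 0.951, and it fell below 0.5 for 5: Klf4 at 0.153, Pcsk1 at 0.264, Egr4 at 0.323, Arl4d at 0.407 and Fosb at 0.49. For those 5 the relation rested largely on KI_WT 3 and KO 1. Next lowest were Fosl2 at 0.505, Gadd45g at 0.528 and Tiparp at 0.562. The mark of 0.5 is not a test threshold. With group means subtracted the r of the 20 genes was 0.627 to 0.97. Within the 9 animals with the higher numbers it was 0.434 to 0.918, while the lower numbers have only 3 animals, too few for a value of their own. The genes share each library and its depth in these values.

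**Figure D4:**
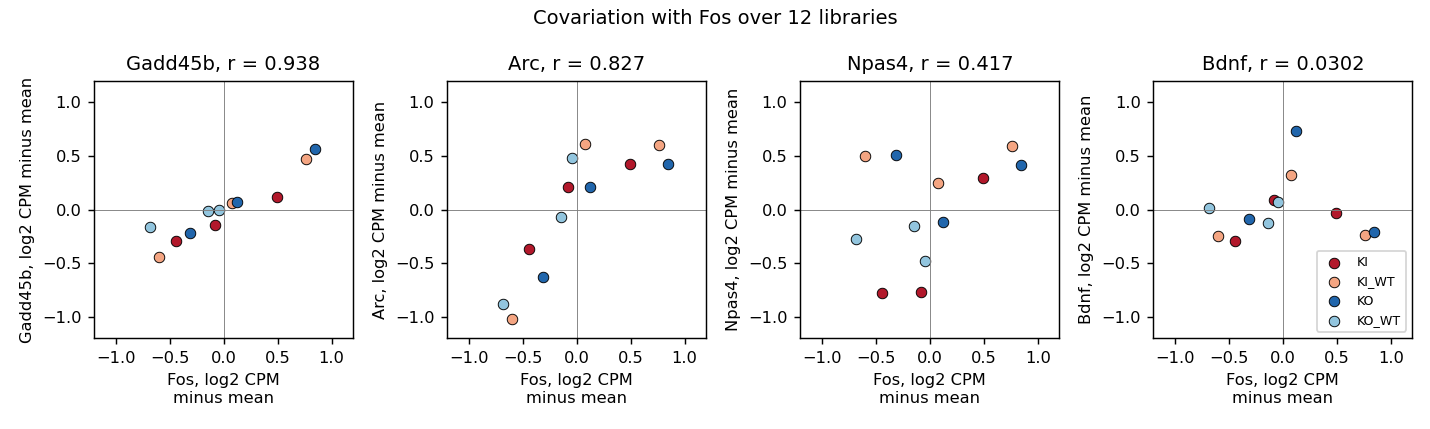
Log2 CPM of Gadd45b, Arc, Npas4 and Bdnf against that of Fos, each minus its mean over the 12 libraries, with 1 point per library coloured by group. Gadd45b and Arc rise with Fos (r = 0.938 and 0.827), while Npas4 (r = 0.417) and Bdnf (r = 0.0302) scatter.

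Among themselves the 34 genes had a median r of 0.508 over their 561 pairs, with 51.2% of pairs above 0.5, against a median of 0.00074 with all other tested genes, where 9.21% of pairs were above 0.5. With group means subtracted the median was 0.564, and 13.4% of pairs with other genes were above 0.5. The tightest pairs joined genes of different roles, such as Dusp1 with Arc (r = 0.954), Egr2 with Nr4a1 (0.949), Dusp5 with Arc (0.944) and Fosb with Egr4 (0.942). The exceptions were Bdnf, with a median r of 0.0251 to the others, Npas4 (0.123), Inhba (0.174) and Nr4a2 (0.183). Bdnf against Fos gave r = 0.0302 (permutation p = 0.929, adjusted 0.929) and rho = 0.189 (permutation p = 0.557, adjusted 0.557), and r = 0.492 without KI_WT 3 and KO 1. Npas4 against Fos gave r = 0.417 (permutation p = 0.176, adjusted 0.221) and rho = 0.364 (permutation p = 0.247, adjusted 0.291), and r = 0.109 without those 2. KI_WT 2, the animal in which 19 genes were lowest, had the third highest Npas4 level at 18.7 CPM, the 1 gene of the 34 that was above its mean there.

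Outside the 34 genes, the 8 tested genes most like their mean deviation over the 12 libraries were named as a description. They were Cstf2t (r = 0.966), Agk (0.928), Spty2d1 (0.924), 1700016P03Rik (0.922), Ptcd2 (0.92), Ip6k2 (0.916), Midn (0.912) and Fam175b (0.91). They were chosen for these values among all tested genes, so the values carry no test. 1700016P03Rik is a noncoding transcript on chromosome 11, 75172560 to 75177633 (GRCm38), and the annotation places the precursors of Mir212 and Mir132 within it. It ranged from 3.61 CPM in KI_WT 2 to 8.68 CPM in KO 1. Cstf2t, a polyadenylation factor, had a narrower span, 102.7 CPM in KI_WT 2 to 125.7 CPM. Midn was also on the list of other activity-regulated genes.

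The machinery that induces these genes was examined through a list of 30, among them Creb1 and its coactivators, Srf and its partners, the calcium and MAP kinases and calcineurin. All 30 were tested and 0 were called in either line. In KI 6 were positive and 24 negative (median -0.06), with 2 under an unadjusted p of 0.05 (6.96% of all tested genes); in KO 8 were positive and 22 negative (median -0.11), with 4 (7.22% of all tested genes). Over all tested genes 48.72% were positive in KI and 51.96% in KO. Rps6ka2, a ribosomal S6 kinase downstream of ERK, stood at 59.98 ± 4.31 CPM (SD, n = 3) in KO against 74.1 ± 7.27 in KO_WT, a log2 fold change of -0.30 (SE 0.0819, adjusted p = 0.678 by edgeR). It stood at 71.8 ± 2.55 CPM in KI against 63.0 ± 2.60 in KI_WT, a log2 fold change of 0.19 (SE 0.0819, adjusted p = 0.705 by edgeR). The difference between the lines was 0.49 (SE 0.116, unadjusted p = 0.0011, adjusted p = 0.918 by edgeR). The median deviation of this list stayed between -0.113 and 0.0749 in every library, a narrower span than that of the immediate early genes.

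A further list held 40 other activity-regulated genes, such as Homer1, Vgf, Scg2, Rgs2 and Per1. All 40 were tested and 0 were called in either line. In KI 22 were positive and 18 negative (median 0.0059), and in KO 28 were positive and 12 negative (median 0.08). Cyr61, a matricellular protein, stood at 6.85 ± 0.923 CPM (SD, n = 3) in KO against 4.23 ± 0.808 in KO_WT, a log2 fold change of 0.69 (SE 0.22, unadjusted p = 0.00841, adjusted p = 0.678 by edgeR). By library the list followed the immediate early genes at its ends: its lowest median deviation was -0.247 in KI_WT 2 and its highest 0.165 in KI_WT 3.

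The libraries also differed in markers of other brain regions and in other measured ways, given here beside the shared variation; their part in it was not tested. Total counts were 31790970 to 36514024, and 21927 to 22809 genes were detected. The 7 olfactory bulb markers summed to 692 CPM in KI_WT 3, 417 in KO_WT 3 and 362 in KO 1, and to 130 to 254 CPM in the other 9. KI_WT 3 and KO 1 are the animals with the highest immediate early gene levels, while KO_WT 3 was near the mean at -0.0533. The 7 choroid plexus markers summed to 20.1, 25.9 and 28.7 CPM in KO_WT 1, KI_WT 3 and KO_WT 3 and to 555 to 1907 CPM in the rest. The 7 excitatory neuron markers, which mark the principal cells of cortex, summed to 1671 to 2356 CPM, lowest in KO 1 and KI_WT 3, with 0 called in either line. Summed levels were 889 to 1472 CPM for inhibitory neurons, 2411 to 2879 for astrocytes, 4818 to 11410 for oligodendrocytes, 372 to 471 for microglia and 228 to 336 for endothelium. They were 209 to 485 CPM for thalamus, 411 to 1185 for striatum (7 of 8 markers tested) and 119 to 318 for hippocampus. In any of these lists 0 markers were called. Striatum sums were highest in KO 1 (1185 CPM) and KI_WT 3 (1058 CPM), the animals with the highest immediate early gene levels. Next was KO_WT 1 (959 CPM), where those genes were at -0.273. Inhibitory neuron sums were highest in KI_WT 3 (1472 CPM) and KO 1 (1193 CPM). Next was KI 2 (1154 CPM), where immediate early genes were at -0.196. No term for striatum or inhibitory neuron markers was fitted. The 8 glucocorticoid-responsive genes were lowest in KI_WT 2 (median deviation -0.566) and highest in KO 1 (0.501), and 7 inducible heat shock genes were at -0.244 and 0.348 in these animals. KI_WT 2 also had the largest share of mitochondrial counts, 9.31% against 4.62% to 7.95% in the others. The sum of the Y-linked genes was 0.0285 to 0.12 CPM in 5 animals (KI_WT 1, both KI 2 and KI 3, and both KO 1 and KO 2), and 185 to 234 CPM in the other 7. All KO_WT animals were on the high side, and the labels give no sex. Some marker lists differed between mutant and wild-type groups, though not always across all animals. Their part in the differences of the 34 genes between mutant and wild type was not tested beyond the regional terms given next and the term for Y-linked genes given above. Thalamus markers were higher in KI than in KI_WT at an unadjusted p under 0.05 for 6 of 8 (6.96% of all tested genes; the median over the 8 was 0.87 on the log2 scale), and in KO for 3 of 8 (7.22% of all tested genes), with a median of 0.56. Their summed level was 338 to 465.9 CPM in KI and 232.6 to 345.2 in KI_WT. It was 283.9 to 485.2 in KO and 208.9 to 351.8 in KO_WT, so the sums overlapped in both lines. By median deviation over the 8 markers, however, the groups of the knock-in line did not overlap. KI 1 to 3 were at 0.745, 0.233 and 0.403, and KI_WT 1 to 3 at -0.446, -0.797 and -0.542. The knockout line overlapped by that measure too, at -0.287 to 0.768 in KO and -0.969 to 0.199 in KO_WT. All 7 olfactory bulb markers had a negative value in KI (median -1.69), and all 7 choroid plexus markers a positive one in KO (median 0.88). In both cases 0 markers were under an unadjusted p of 0.05, and the summed levels overlapped. Olfactory bulb sums were 160.1 to 237.3 CPM in KI, and 158, 163.1 and 692.3 in KI_WT 1 to 3. Choroid plexus sums were 554.9 to 1061 CPM in KO, and 20.1, 879.2 and 28.7 in KO_WT 1 to 3. Astrocyte, microglia and endothelium markers were lower in KO than in KO_WT by their summed levels, without overlap. Astrocyte markers summed to 2504 to 2604 CPM in KO and 2802 to 2879 in KO_WT, microglia to 372.5 to 394.1 and 412.5 to 471.2, and endothelium to 228.2 to 290.8 and 295.5 to 321. Of the 7 markers in each of these 3 lists 6 had a negative value, as had all 8 oligodendrocyte markers (median -0.39). The oligodendrocyte sums overlapped, at 4818 to 10570 CPM in KO and 8861 to 11410 in KO_WT. In bulk tissue fewer active neurons and less RNA per neuron cannot be told apart.

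Marker levels for choroid plexus, olfactory bulb and thalamus were also entered in the edgeR fit as terms. The median of the 34 genes was then -0.19 in the knock-in line and -0.08 in the knockout line. In either line 0 of 34 reached an unadjusted p under 0.05, against 6.12% of all tested genes in the knock-in line and 4.04% in the knockout line. These terms leave fewer residual degrees of freedom than the 8 of the main fit. In the fit with regional terms Npas4 kept its directions at -0.89 (adjusted p = 0.807) and 0.69 (adjusted p = 0.959). Low animal numbers belong to KO 1, KO_WT 2 and KO_WT 3, and all others are high; what the number stands for is not given. With a term for the number range, the edgeR values in that line were 0.62 for Npas4 (adjusted p = 0.459) and 0.59 for Gadd45g (adjusted p = 0.409), and the median was 0.23.

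For 7 of the 34 genes the annotation has another gene on the same bases: Bdnf, Dusp1, Dusp5, Inhba, Jun, Junb and Tiparp. The antisense transcript Junos overlaps Jun, and Prdx2 overlaps Junb. Whether counting used strand is not given in the sources used here, so reads of these pairs cannot be told apart.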

How the data were processed

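Poly(A) RNA-seq of mouse cortex (12 libraries, 4 groups of 3, each from an animal with its own number) was used as deposited. Per the submitters' processing notes, the authors used bcl2fastq 2.17, STAR 2.5.0c and Cufflinks 2.2.1 with GRCm38; no counter, annotation or strand setting is given in the sources used here. The authors deposited a table of raw counts per gene (41388 genes, 31790970 to 36514024 counts per library) and an RPKM table. Here the counts were fitted with edgeR 4.0.16 in R 4.3.3: filterByExpr (17441 genes), TMM scaling, quasi-likelihood tests with 1 mean per group over all 12 libraries (biological coefficient of variation 15.7%, 8 residual degrees of freedom), and Benjamini-Hochberg adjustment over all tested genes at 0.05. Levels are TMM-scaled CPM; log2 CPM used a prior count of 2. Replicates were numbered in accession order and pair nothing. Correlations used SciPy 1.17.1.

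The 34 genes and all gene lists (upstream signalling, other activity-regulated genes, neuron, glia, vessel, region, heat shock, glucocorticoid and Y-linked markers) were chosen with earlier results of these data known. Per-library values were given for Fos, Arc, Egr1, Npas4, Nr4a1 and Bdnf, and, in each comparison, for members at an unadjusted p under 0.05 (at most 8) or the 3 with the smallest p. From other lists at most 3 genes with the smallest p were taken, and 8 non-members most like the members' mean deviation. Alternatives were RLE scaling, 2 other count filters, DESeq2 1.42.0, limma 3.58.1 (voom weights, or log2(RPKM + 0.1) and log2(RPKM + 1)), the compared groups alone, terms for animal number range, Y-linked genes or regional markers, and leaving out each library.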

Additional observations from a re-analysis of the deposited data

Results flagged for a closer look

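Npas4 stood out because its difference from wild type ran in opposite directions in the 2 lines: every KI library (7.65 to 16.2 CPM) lay below the KI_WT mean of 18.1 CPM, and every KO library (12.2 to 18.8 CPM) lay above the KO_WT mean of 10.7 CPM. The effect in KI minus that in KO was -1.375 on the log2 scale, with unadjusted p = 0.00303 and adjusted p = 0.918 (edgeR, interaction contrast), so it did not pass over all genes. The same pattern was seen in 1 of the 34 genes and in 1244 of the tested genes (7.13%). Leaving out single libraries gave -1.82 (without KI 1) to -1.19, with adjusted p from 0.136 (without KI 1) to 0.9986 by edgeR, and the fits on all 12 libraries gave -1.61 to -1.15, with a smallest adjusted p of 0.68.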

How the results depend on the processing

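No member was called under any alternative in any of the 5 comparisons, leave-one-out fits included. Few genes were called at all in these fits, at most 12 of 17441 tested (DESeq2, KI against KO). Of 595 values of named members under an alternative, 567 kept their direction, and 28, all in the first 2 comparisons, turned. With all 12 libraries the turned values were as follows. In KI against KI_WT, limma on log2(RPKM + 0.1) gave Arc 0.077 and Bdnf 0.028, limma on log2(RPKM + 1) gave Arc 0.071 and Bdnf 0.024, and terms for regional markers gave Nr4a1 -0.26 and Jun -0.0040. In KO against KO_WT, Arc was -0.10 with voom quality weights, -0.12 with a term for Y-linked genes and -0.71 with regional terms, and Nr4a1 was 0.18 with a term for the animal number range. Leaving out 1 library at a time, KI against KI_WT ran from -0.43 to 0.27 for Fos, -0.47 to 0.12 for Arc, -0.27 to 0.091 for Egr1, -0.13 to 0.17 for Bdnf, -0.12 to 0.39 for Nr4a1 and -0.71 to 0.054 for Pcsk1. KO against KO_WT ran from -0.16 to 0.49 for Arc, -0.25 to 0.034 for Egr1, -0.13 to 0.39 for Bdnf and -0.41 to 0.20 for Nr4a1. The wild-type median moved from 0.15 to 0.469 with the animal number term. Then 7 members (6.65% of all tested genes) were under an unadjusted p of 0.05 in place of 1 (1.96% of all tested genes). All knock-in-line animals have high numbers, so that term is estimated within the knockout line alone. There KO_WT 1 (median deviation -0.273) is the only KO_WT animal with a high number. The cause of the move was not tested further. Members at an unadjusted p under 0.05 in the knockout line are given here with the share of all tested genes in the same fit. They numbered 0 with regional terms (4.04%) and 1 without KO_WT 1 (4.4%). They numbered 2 without KO 2 (4.31%) or KO_WT 3 (5.3%), and 5 with no count filter (5.74%). The knock-in median was -0.27 without KI_WT 2. The median r with Fos was 0.647, and 0.644 to 0.762 under its alternatives; the median spread was 0.332 to 0.402 without single libraries.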
